A study of Mus musculus with 6 samples.

Results

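The CC chemokine genes of mouse chromosome 11 encode small secreted proteins that attract leukocytes, and 9 of them, Ccl2, Ccl7, Ccl12, Ccl8, Ccl5, Ccl9, Ccl6, Ccl3 and Ccl4, were followed here among 34745 genes of a single table of read counts. They were taken by symbol, as members of this cluster, and each was matched to its Ensembl identifier. The 6 RNA sequencing libraries came from wild-type (WT) bone marrow-derived macrophages (BMDMs), primary cells that had been grown from mouse marrow with the growth factor M-CSF at 20 ng/ml. In 3 libraries the cells had been pretreated with an inhibitor of KAT8, a lysine acetyltransferase that acts on histone H4, and in 3 with DMSO, the solvent. All 6 cultures were then stimulated for 6 h with R848 (100 ng/ml), a small-molecule agonist of the endosomal receptor TLR7. Compound, dose and length of pretreatment are not named in the labels used here, and neither unstimulated cells nor cells with inhibitor alone were analysed here. Nothing in the labels says that the replicates are separate mice or separate cultures. The p-values below therefore rest on library-to-library spread alone, part or all of which can be technical.

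CC chemokines carry a pair of adjacent cysteines near the start of the mature protein and signal through receptors of the CCR family. Macrophages release them after Toll-like receptor stimulation, when NF-kB and other factors act on their promoters. Ccl2, Ccl7, Ccl8 and Ccl12 belong to the monocyte chemoattractant protein type, of which Ccl2 acts mainly through Ccr2. Ccl3, Ccl4 and Ccl5 attract monocytes and T cells, and Ccl3 and Ccl5 are ligands of Ccr1. Ccl9 and Ccl6 are rodent genes whose products also act on Ccr1.

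The genes lie in 2 blocks, separated by 1408978 bases between Ccl8 and Ccl5. The block nearer the start of the chromosome holds Ccl2, Ccl7, Ccl12 and Ccl8, all on the plus strand, and the other holds Ccl5, Ccl9, Ccl6 and Ccl3 on the minus strand and Ccl4 on the plus strand. No exon of the 9 genes overlaps an exon of another annotated gene. Their transcripts are related in sequence, but over all 36 pairs the longest identical run was 25 bases (Ccl9 and Ccl6). The best local alignment of that pair covered 652 columns at 66.7% identity, and that of Ccl2 and Ccl7 covered 318 columns at 69.2% identity. How the authors' counting treated reads that match several places is not given in the sources used here.

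Promoter sequences, from 250 bases before to 50 bases after the start of the gene, were found for 5 of the 9 genes in a RefSeq table of build GRCm38.p6 (Ccl12, Ccl8, Ccl9, Ccl6 and Ccl3). Those of neighbouring and related genes are shown because Ccl9 and Ccl6 both fell with the inhibitor by wide margins, while Ccl12 and Ccl8 had the fewest counts of the 9. This choice followed the values. The Ccl3 promoter is not printed although Ccl3 also fell, and Ccl12 fell too, at a very low level. Whether promoter sequence bears on the changes was not tested. Capitals mark matches, on either strand, to the motifs searched. The Ccl9 promoter is chr11:83578587-83578886 (minus strand) and the Ccl6 promoter chr11:83593038-83593337 (minus strand). The Ccl12 promoter is chr11:82101595-82101894 (plus strand) and the Ccl8 promoter chr11:82114935-82115234 (plus strand).
Ccl9: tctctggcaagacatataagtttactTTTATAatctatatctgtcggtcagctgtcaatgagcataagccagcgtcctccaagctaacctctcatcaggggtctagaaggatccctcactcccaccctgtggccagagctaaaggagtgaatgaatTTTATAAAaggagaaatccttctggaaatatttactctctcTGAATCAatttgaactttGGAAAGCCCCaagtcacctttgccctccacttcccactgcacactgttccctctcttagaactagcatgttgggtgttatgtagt
Ccl6: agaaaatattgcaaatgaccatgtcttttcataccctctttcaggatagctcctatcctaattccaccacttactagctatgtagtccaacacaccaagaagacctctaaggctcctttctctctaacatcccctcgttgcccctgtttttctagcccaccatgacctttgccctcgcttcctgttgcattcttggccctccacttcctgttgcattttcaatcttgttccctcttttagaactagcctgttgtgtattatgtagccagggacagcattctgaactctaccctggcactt
Ccl12: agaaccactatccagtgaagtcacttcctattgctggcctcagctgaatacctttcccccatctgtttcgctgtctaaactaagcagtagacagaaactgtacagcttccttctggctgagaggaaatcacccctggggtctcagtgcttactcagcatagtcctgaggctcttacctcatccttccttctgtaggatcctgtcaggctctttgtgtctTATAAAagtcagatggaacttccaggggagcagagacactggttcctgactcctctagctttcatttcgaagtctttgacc
Ccl8: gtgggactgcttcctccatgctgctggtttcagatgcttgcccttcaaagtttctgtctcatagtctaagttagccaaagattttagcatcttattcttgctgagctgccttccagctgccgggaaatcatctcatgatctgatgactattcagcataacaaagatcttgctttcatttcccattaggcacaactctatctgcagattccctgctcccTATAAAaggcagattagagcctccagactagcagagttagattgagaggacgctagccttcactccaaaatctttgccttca

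The motifs searched were the NF-kB consensus, the TATA box (TATAAA), an AP-1 site (TGANTCA), a C/EBP site (TTGCNNAA) and the ISRE core, which is GAAA followed after any 2 bases by a second GAAA. The Ccl9 promoter held an NF-kB match on the opposite strand to the gene, whose first base lay at -35 from the start, an AP-1 match at -53 that fits the pattern on both strands, and TATA box matches at -224, -94 and -92, of which the last pair overlap on opposite strands. The Ccl12 and Ccl8 promoters each held a TATA box on the gene's own strand, at -31 and -32. None of the letters searched occurred in the Ccl6 and Ccl3 windows. Among 32851 promoters of the same length, 8.46% held the NF-kB consensus, 13.6% the TATA box, 7.81% the AP-1 site, 3.44% the ISRE core and 10.8% the C/EBP site. The Ccl9 and Ccl6 promoters aligned over 74 columns at 78.4% identity, from -18 to 49 in Ccl9 and from -59 to 15 in Ccl6. In Ccl9 most of that stretch therefore lies after the start of the gene. The Ccl12 and Ccl8 promoters aligned over 199 columns at 60.8% identity, from -147 to 47 in Ccl12 and from -147 to 44 in Ccl8. Alignments of promoters outside these genes were not computed.

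Library totals were 23037820 to 25089320 counts with the inhibitor and 18441352 to 24429778 counts with DMSO. Levels are given in CPM, read counts relative to a library size that TMM scaling has corrected for composition. The limit for a count of 0, taken as 3 counts in a library, lay between 0.116 and 0.166 CPM and covers counting error only. Macrophage markers were present in every library. Lyz2 was the highest, at 4190 ± 37.1 CPM with the inhibitor and 8596 ± 632 CPM with DMSO (SD, n = 3 each). Fcgr1 was the lowest, at 1.76 ± 0.277 CPM with the inhibitor and 3.46 ± 0.242 CPM with DMSO. Of 10 macrophage markers 7 were lower with the inhibitor, and their summed level was 7967 to 8058 CPM with the inhibitor and 12309.8 to 14041 CPM with DMSO. Stromal markers were present as well. Of 10 markers 8 were lower, none was at 0, and the sum was 2020.4 to 2155 CPM with the inhibitor and 4527 to 5335 CPM with DMSO. Col1a2 was the most abundant, at 669 ± 20.2 CPM with the inhibitor and 1701 ± 115 CPM with DMSO. The summed neutrophil markers were at 2.08 to 2.93 CPM with the inhibitor and 6.41 to 7.16 CPM with DMSO, with both tested markers lower and Ly6g, S100a9, Elane and Ngp at 0 throughout. Dendritic cell markers summed to 9.38 to 10.4 CPM with the inhibitor and 15.6 to 17.6 CPM with DMSO, nearly all of it from Zbtb46, the only tested marker, which was lower. Markers of mast cells and basophils, lymphocytes and endothelium summed to at most 4.04 CPM with the inhibitor and 5.80 CPM with DMSO in any library and list, and Kdr was lower among the 3 tested.

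With the inhibitor, the level of 7 of the 9 chemokine mRNAs was lower. All 5 genes of the block from Ccl5 to Ccl4 fell by more than 2-fold, with Ccl9 the most. In the other block Ccl7 fell by less, Ccl12 fell at a very low level and at the edge of the threshold, and Ccl2 and Ccl8 did not pass the test. The test was edgeR's quasi-likelihood test over 13815 genes, with Benjamini-Hochberg adjustment and a threshold of 0.05. Of all tested genes 26.5% were called lower and 24.9% higher, against 7 and 0 of these 9. The 9 genes were chosen with earlier results of these data known. With library totals alone as the scale, 2842 genes were lower and 4888 higher, in place of 3667 and 3446, and 6 of the 9 chemokine genes were lower. The median log2 fold change (inhibitor over DMSO) was -1.19 for the 9 genes and 0.01 for all tested genes. The libraries of the groups did not overlap for 7 of the 9 genes, and for 60.6% of all tested genes. The 7 macrophage and 8 stromal markers called above were lower in the same libraries. The macrophage markers Csf1r, Cd68 and Spi1 did not pass, with log2 fold changes of -0.03, 0.15 and 0.03. The stromal markers Pdgfra (0.08) and Lum (-0.36, edgeR adjusted p = 0.0608) did not pass either. The part of the macrophage and stromal markers in the chemokine differences was not tested. In such bulk samples, fewer cells of a type and less RNA per cell cannot be told apart.

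**Figure D1:**
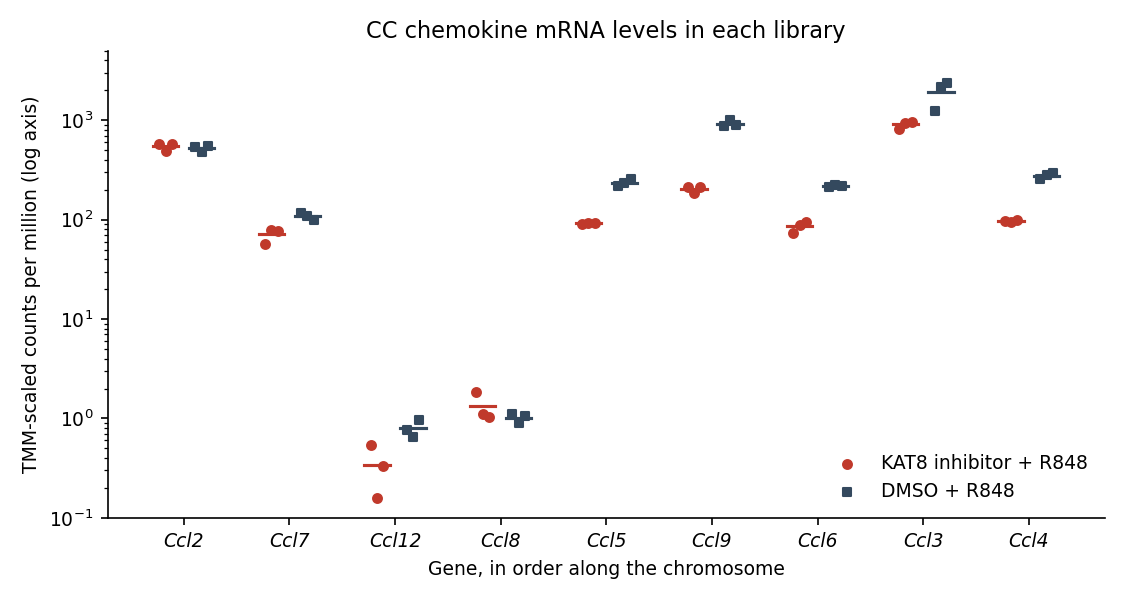
TMM-scaled CPM of each gene on a log axis, with a point for each library and a bar at the group mean, for KAT8 inhibitor with R848 (red circles) and DMSO with R848 (dark squares). The 3 inhibitor libraries lie below the 3 DMSO libraries for 7 genes, while those of Ccl2 and Ccl8 overlap.

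Together the 9 genes summed to 1924, 1983 and 2114 CPM in the inhibitor libraries and 3441, 4501 and 4688 CPM in the DMSO libraries. This was 0.208 ± 0.0114% of all counts with the inhibitor and 0.405 ± 0.0589% with DMSO (SD, n = 3 each). The lowest DMSO library was replicate 1, and most of its distance to the others came from Ccl3. Without Ccl3 the sum was 1109, 1037 and 1152 CPM with the inhibitor and 2216, 2322 and 2313 CPM with DMSO. The monocyte chemoattractant genes alone summed to 633, 576 and 655 CPM with the inhibitor and 661, 588 and 647 CPM with DMSO, values that overlap. Ccl5, Ccl3 and Ccl4 together summed to 1003, 1132 and 1153 CPM with the inhibitor and 1698, 2691 and 2924 CPM with DMSO. Ccl9 and Ccl6 together summed to 289, 275 and 306 CPM with the inhibitor, far under the 1081, 1223 and 1117 CPM with DMSO.

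The makeup of the chemokine counts differed as well. Ccl2 held 27.3 ± 2.40% of the counts of the 9 genes with the inhibitor and 12.7 ± 2.76% with DMSO. Ccl9 held 10.2 ± 0.916% with the inhibitor and 22.3 ± 3.04% with DMSO. Ccl3 held the greatest share in both groups, 45.2 ± 2.70% with the inhibitor and 44.9 ± 8.13% with DMSO.

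Per kilobase of exon, which allows levels to be set side by side between genes, Ccl3 stood at the top in both groups, at 1185 ± 106 CPM per kb with the inhibitor and 2515 ± 804 CPM per kb with DMSO. With the inhibitor it was followed by Ccl2 (482 CPM per kb), Ccl4 (146), Ccl5 (95.4), Ccl7 (89.0), Ccl9 (67.0), Ccl6 (47.8), Ccl8 (2.61) and Ccl12 (0.640). Among neighbours in that order, only the libraries of Ccl5 and Ccl7 overlapped. With DMSO it was followed by Ccl2 (459 CPM per kb), Ccl4 (419), Ccl9 (304), Ccl5 (245), Ccl7 (135), Ccl6 (120.3), Ccl8 (1.99) and Ccl12 (1.48). There Ccl2 overlapped with Ccl4, and Ccl8 with Ccl12. This order rests on the combined length of all annotated exons of a gene. With the length of the longest coding transcript instead, chosen after seeing the data, 7 of the 9 genes held their place with the inhibitor and 4 with DMSO. Ccl5, whose length is then 532 bases in place of 960, stood above Ccl4 and Ccl9 in both groups, at 172 CPM per kb with the inhibitor and 442 CPM per kb with DMSO. In the DMSO group, however, the libraries of Ccl5 and Ccl4 overlapped by this length. With either length, Ccl9 stood below Ccl7 with the inhibitor and above it with DMSO.

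Among the monocyte chemoattractants, Ccl2 (ENSMUSG00000035385, chromosome 11, 82035571 to 82037453 in mm10), which recruits monocytes, was at 573, 495 and 577 CPM in the inhibitor libraries and at 544, 476 and 545 CPM in the DMSO libraries. The groups overlapped. Its log2 fold change was 0.07 with a 95% interval of -0.10 to 0.25 (SE 0.076; edgeR adjusted p = 0.457), so a fall like that of the other block lies outside the interval. Scaling by library totals alone gave 0.18 (adjusted p = 0.0914).

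Ccl7 (ENSMUSG00000035373, 82045712 to 82047525), a further monocyte attractant and the next gene along, was at 57.3, 79.2 and 77.2 CPM with the inhibitor and at 115, 109.7 and 99.7 CPM with DMSO. Every inhibitor library was below every DMSO library. The fall was 1.52-fold (log2 fold change -0.60, SE 0.12, adjusted p = 0.00315).

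Ccl12 (ENSMUSG00000035352, 82101845 to 82103400), known as a monocyte attractant in mice, had only 14, 4 and 8 counts in the inhibitor libraries and 14, 15 and 22 counts in the DMSO libraries. After scaling these were 0.344 ± 0.190 CPM with the inhibitor and 0.793 ± 0.157 CPM with DMSO (SD, n = 3 each), and the scaled values did not overlap. The log2 fold change of -1.19 had a 95% interval of -2.16 to -0.22 and an adjusted p of 0.0446 by edgeR. That call was lost when either inhibitor replicate 2 (edgeR adjusted p = 0.123) or inhibitor replicate 3 (0.106) was left out. It was also lost without DMSO replicate 1 (edgeR adjusted p = 0.0826), replicate 2 (0.0582) or replicate 3 (0.137), and under DESeq2 (adjusted p = 0.0822).

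Ccl8 (ENSMUSG00000009185, 82115185 to 82116799), a monocyte chemoattractant protein by sequence that in mice acts through Ccr8, had 48, 28 and 25 counts with the inhibitor and 20, 21 and 24 counts with DMSO. That was 1.85, 1.12 and 1.04 CPM with the inhibitor and 1.10, 0.906 and 1.05 CPM with DMSO, values that overlap. Its log2 fold change of 0.40 had a 95% interval of -0.26 to 1.06 (adjusted p = 0.277 by edgeR), which is too wide to tell a rise from no change at this depth. Ccl11 and Ccl1 lie in the same stretch. Ccl11, which attracts eosinophils, had 0 counts in the inhibitor libraries and 3, 5 and 2 counts in the DMSO libraries, and Ccl1 had 0 counts in all 6, so neither was tested.

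In the other block, Ccl5 (ENSMUSG00000035042, 83525778 to 83530518), which attracts T cells and monocytes, was at 90.6, 92.1 and 92.0 CPM with the inhibitor and at 218, 232 and 255 CPM with DMSO. The inhibitor libraries agree closely, and the groups lie far apart. The fall was 2.57-fold (log2 fold change -1.36, SE 0.060, edgeR adjusted p = 1.26e-06).

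Ccl9 (ENSMUSG00000019122, 83572919 to 83578636) was at 215, 186 and 212 CPM with the inhibitor and at 870.1, 1002 and 900.6 CPM with DMSO. This was the steepest fall of the 9, at 4.53-fold (log2 fold change -2.18, SE 0.076, edgeR adjusted p = 5.04e-07), and it ranked 166 from the lowest among the log2 fold changes of 13815 tested genes. Ccl6 (ENSMUSG00000018927, 83587882 to 83593087), with which it shares the longest identical run, was at 73.8, 89.3 and 94.2 CPM with the inhibitor and at 211, 221 and 216 CPM with DMSO. It fell 2.52-fold (log2 fold change -1.33, SE 0.084, adjusted p = 7.18e-06). Both genes showed clear gaps between the groups.

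Ccl3 (ENSMUSG00000000982, 83647844 to 83649355) and Ccl4 (ENSMUSG00000018930, 83662584 to 83664683) encode the macrophage inflammatory proteins 1-alpha and 1-beta. Ccl3 was at 815, 946 and 963 CPM with the inhibitor and at 1224, 2179 and 2375 CPM with DMSO. DMSO replicate 1 stood well below the other DMSO libraries, yet above all inhibitor libraries. The fall was 2.12-fold (log2 fold change -1.09, SE 0.21, adjusted p = 0.00335 by edgeR). Ccl4 was at 97.2, 93.9 and 98.3 CPM with the inhibitor and at 256, 279 and 294 CPM with DMSO, and there DMSO replicate 1 stood close to the others. It fell 2.86-fold (log2 fold change -1.52, SE 0.058, adjusted p = 7.21e-07). Among the DMSO libraries Ccl3 varied most of all 9 genes, with a coefficient of variation of 32.0%, while that of Ccl4 was 6.98%. Among the inhibitor libraries these were 8.92% for Ccl3 and 2.36% for Ccl4. Leaving out DMSO replicate 1 gave Ccl3 a log2 fold change of -1.33 (adjusted p = 2.22e-05 by edgeR).

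**Figure D2:**
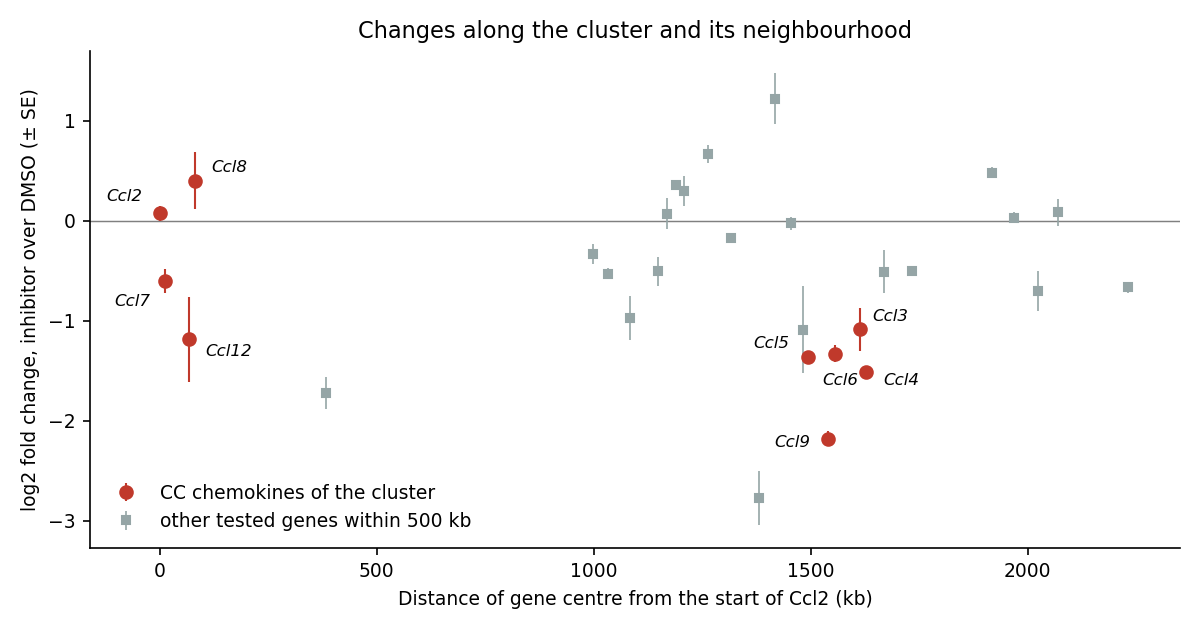
Log2 fold change (inhibitor over DMSO, bars are SE) against the distance of each gene's centre from the start of Ccl2, in kb, for the 9 chemokine genes (red circles) and for the other tested genes within 500 kb (grey squares). The 5 genes from Ccl5 to Ccl4 lie between -1.09 and -2.18, and Ccl2, Ccl7, Ccl12 and Ccl8 lie between -1.19 and 0.40.

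Position was examined further through the other genes within 500 kb of a chemokine gene. Of 65 annotated genes, 43 were in the table and 21 passed the filter on low counts. Among these 21, 4 were higher and 10 lower with the inhibitor, and their median log2 fold change was -0.34, against 0.01 for all tested genes. The 14 tested genes in the interval between Ccl8 and Ccl5 had a median of -0.26, with 3 higher and 7 lower. Slfn2, a Schlafen gene and the most abundant of the neighbours, fell 1.44-fold to 603 ± 10.2 CPM with the inhibitor, against 869.6 ± 56.6 CPM with DMSO (SD, n = 3 each; edgeR adjusted p = 8.82e-05). Acaca, which encodes acetyl-CoA carboxylase, fell 1.59-fold to 53.6 ± 1.76 CPM with the inhibitor, against 85.2 ± 4.01 CPM with DMSO. Heatr6 fell 1.41-fold. The low-level genes Rasl10b (log2 fold change -2.77) and Tmem132e (-1.73) fell more.

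Ratios of counts within a library do not depend on scaling between libraries, and 5 pairs of related or adjacent genes were compared this way. The ratio of Ccl2 to Ccl7 was 9.997, 6.25 and 7.47 with the inhibitor and 4.72, 4.34 and 5.47 with DMSO. That of Ccl9 to Ccl6 was 2.91, 2.08 and 2.25 with the inhibitor and 4.13, 4.54 and 4.17 with DMSO. That of Ccl3 to Ccl4 was 8.38, 10.1 and 9.79 with the inhibitor and 4.79, 7.80 and 8.08 with DMSO. With the inhibitor Ccl2 to Ccl7 and Ccl3 to Ccl4 were higher, and Ccl9 to Ccl6 was lower. On few counts of Ccl12, the ratio of Ccl12 to Ccl8 was 0.292, 0.143 and 0.32 with the inhibitor and 0.7, 0.714 and 0.917 with DMSO, and that of Ccl2 to Ccl12 was 1063, 3099 and 1737 with the inhibitor and 703, 736 and 568.5 with DMSO. All 5 ratios differed without overlap, narrowly for Ccl3 to Ccl4 (lowest inhibitor value 8.38, highest DMSO value 8.08). Among single tested genes, 60.6% did not overlap between the groups, and the share among other gene pairs was not computed. Ccl2 and Ccl12 recur among the 5 pairs, which are therefore not independent. The two-sided exact permutation test gave p = 0.1 for each ratio, and 0.1 also after adjustment over the 5 pairs. This is the smallest value that 3 libraries against 3 allow. No ratio could therefore pass a threshold of 0.05 in this design.

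**Figure D3:**
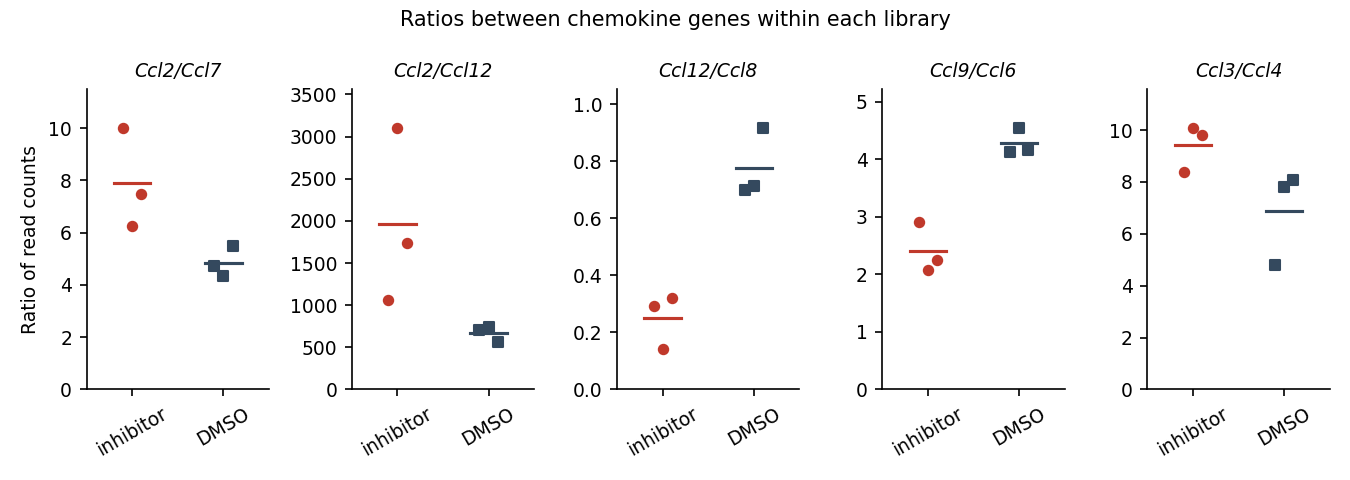
Ratio of read counts of gene pairs within each library, on linear axes from 0, for inhibitor (red circles) and DMSO (dark squares), with a bar at each mean. In all 5 panels the groups do not overlap, which also held for 60.6% of single tested genes. The ratio of Ccl9 to Ccl6 averaged 2.41 with the inhibitor and 4.28 with DMSO.

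Among receptors of the CC family, changes in both directions were measured. Ccr1, a receptor for Ccl3, Ccl5, Ccl6 and Ccl9, rose 3.69-fold, to 64.3, 68.2 and 72.5 CPM with the inhibitor against 16.9, 20.8 and 17.7 CPM with DMSO (edgeR adjusted p = 1.72e-06). The groups were far apart. At much lower levels Ccr3, an eosinophil receptor, rose to 0.708 ± 0.157 CPM with the inhibitor, against 0.214 ± 0.0763 CPM with DMSO (SD, n = 3 each). Ccr3 had 18, 14 and 21 counts in the inhibitor libraries and 3, 7 and 4 with DMSO, where replicate 1 was at the limit of 3 counts. Ccr7, which guides cells to lymph nodes, fell to 1.32 ± 0.116 CPM with the inhibitor, against 2.55 ± 0.504 CPM with DMSO. Ccr2, the main receptor of Ccl2, was at 0.412 ± 0.0966 CPM with the inhibitor and 0.468 ± 0.166 CPM with DMSO, and its log2 fold change of -0.21 (SE 0.39) did not pass. It was named after its values were seen. Of 4 atypical receptors 2 were tested. Ackr1, a scavenging receptor that binds many chemokines, fell to 0.0933 ± 0.0232 CPM with the inhibitor, against 0.597 ± 0.106 CPM with DMSO. It had only 2, 3 and 2 counts in the inhibitor libraries, at or under the limit of 3 counts, and 12, 11 and 15 with DMSO. Part of its exons is shared with Cadm3 on the same strand. Ccrl2, which binds chemerin, was abundant at 406 ± 9.25 CPM with the inhibitor and 454 ± 36.5 CPM with DMSO and did not pass (adjusted p = 0.0575 by edgeR).

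Other CC chemokines were expressed little. Of 12 genes 5 were tested, with 1 higher, 0 lower and a median log2 fold change of 0.02. Ccl20, the ligand of Ccr6, rose to 10.2, 7.67 and 7.55 CPM with the inhibitor, against 4.92, 3.54 and 3.49 CPM with DMSO (log2 fold change 1.10, SE 0.18, edgeR adjusted p = 0.00127). Ccl22, which attracts regulatory T cells, was at 6.28 ± 0.670 CPM with the inhibitor and 6.18 ± 1.20 CPM with DMSO. Of the 17 chemokines of the CXC, CX3C and XC families 12 were tested, of which 3 rose and 7 fell (median -0.48). Cxcl2, the most abundant, fell 1.27-fold to 2822 ± 224 CPM with the inhibitor, against 3576 ± 219 CPM with DMSO (SD, n = 3 each). Cxcl12, which retains progenitors in the marrow, fell by 1.00 on the log2 scale and Cxcl16, whose exons overlap Zmynd15 on the opposite strand, by 0.70. Cxcl14 rose by 0.69 and Cxcl3 by 0.23.

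**Figure D4:**
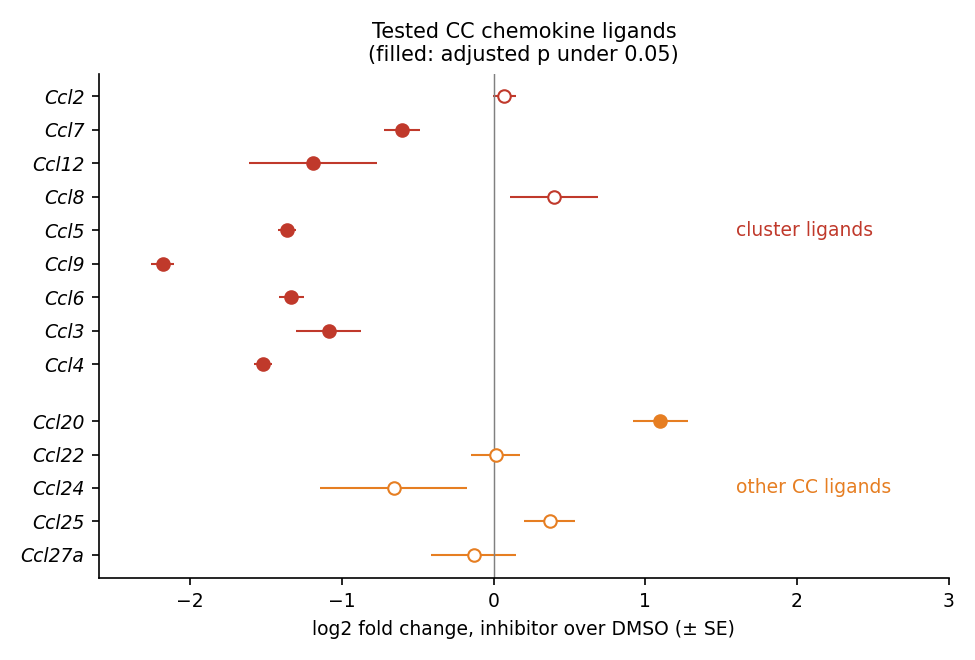
Log2 fold change (inhibitor over DMSO, bars are SE) of the tested CC chemokine ligands of the cluster (red) and of the other tested CC ligands (orange), with filled points for an adjusted p under 0.05. Cluster ligands reach down to -2.18 (Ccl9), and Ccl20 lies at 1.10.

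Among 23 genes that carry the TLR7 signal, drive chemokine transcription or control mRNA decay, 5 rose, 9 fell and 9 did not pass (median log2 fold change -0.10). Tlr7, the receptor that R848 activates, had the lowest log2 fold change of the 23 and was named after its values were seen. It was at 52.3, 26.4 and 56.03 CPM with the inhibitor and at 140.3, 143 and 139.6 CPM with DMSO, a fall of 3.14-fold (log2 fold change -1.65, SE 0.23, edgeR adjusted p = 0.00056). Inhibitor replicate 2 was the lowest library, and the groups did not overlap. The NF-kB genes Relb and Nfkb2 fell 1.37-fold and 1.35-fold, and exons of Nfkb2 overlap Psd on the opposite strand. Of the other NF-kB genes listed, Nfkb1 fell 1.18-fold, Rela rose 1.13-fold, Nfkbia rose 1.26-fold and Rel did not pass. Those were named after their values were seen. Stat2, which transmits interferon signals, fell to 79.2 ± 9.001 CPM with the inhibitor, against 131 ± 9.93 CPM with DMSO (SD, n = 3 each), while Fos, a subunit of AP-1, rose 2.22-fold. Whether any of these changes bears on the chemokine genes was not tested.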

How the data were processed

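The RNA of the 6 libraries was captured as mRNA on beads, per the labels' protocols. What the authors deposited are raw counts by Ensembl gene, with no normalization. The submitters' processing notes name HISAT2, StringTie 1.3.0, edgeR and build mm10. The sources used here do not give the counting tool, the annotation release, the use of strand or the treatment of multiply matching reads.

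Both groups entered 1 model in edgeR 4.0.16 (R 4.3.3). It used TMM scaling, the filterByExpr filter with a minimum count of 10, which 13815 of 34745 genes passed, and the quasi-likelihood test with Benjamini-Hochberg adjustment over those genes at 0.05. Fold changes are inhibitor over DMSO, and each SE follows from the log2 fold change and its F statistic. Positions and exon lengths came from GENCODE M21 on mm10, through Ensembl identifiers; 478 identifiers had no symbol. Promoters are RefSeq's, on GRCm38.p6. No library was a copy of another: chi-square divided by its degrees of freedom was 9.09 to 14.0 for pairs within a group and 84.7 to 102 for pairs across groups.

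All 9 genes are named, with Ccl11 and Ccl1. From each other list, and from the neighbours, the called genes of smallest p (up to 4) and the most abundant tested gene are named; predicted genes are only counted, and a result on the receptors is not reported here. The members and lists were chosen with earlier results of these data known. The model was tested on simulated counts with few genes changed, equally up and down, a setting that does not test scaling where many differ. It was rerun with median-of-ratios size factors, with library totals, unfiltered, with a floor of 5 CPM on the mean, with a block for the replicate number, at an adjusted p under 0.01, with each library left out and in DESeq2 1.42.0.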

Additional observations from a re-analysis of the deposited data

How the results depend on the processing

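The directions of the 7 chemokine genes called lower held under every alternative in which they were tested. Ccl2 and Ccl8 were called in none, with log2 fold changes of 0.006 to 0.18 and of 0.09 to 0.55. The number called lower was 7 and was 6 to 7 across the 13 alternatives, the 6 being without Ccl12, and 0 were called higher in any. The call of Ccl12 was lost in 9 of its 12 alternatives, among them library totals alone (adjusted p = 0.0595) and no filter on low counts (0.0637), and its adjusted p over all 12 was 0.022 to 0.137. At a mean of at least 5 CPM neither Ccl12 nor Ccl8 was tested, and this setting also left 1 CC receptor higher and 6 neighbours lower. Under library totals alone, which moved the median over all genes by 0.11 (log2), 4888 genes were higher and 2842 lower, where TMM scaling had 3446 and 3667, and 2 other CC chemokines were higher. Without a filter 1 other CC chemokine was lower. An adjusted p under 0.01 left 6 neighbours lower and 2257 genes higher over all. Without DMSO replicate 1 the log2 fold change of Ccl3 was -1.33, and without DMSO replicate 3 it was -0.91. The labels do not say whether replicate numbers mark pairs. Deviations of libraries with the same number correlated at -0.0337 to 0.0243 over all tested genes, which with 3 libraries per group cannot exclude pairing. With the replicate block 7 of the 9 were lower, with 3215 genes higher and 3510 lower over all. Depth limits Ccl12, Ccl8, Ccl11, Ccr3, Ccr2 and Ackr1, which had at most 48 counts in a library. No group had the 4 libraries needed to test for outlying samples.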
